A study of Mus musculus with 468 samples.

Results

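Among the libraries of adipose RNA from Diversity Outbred (DO) mice, the 20 of highest Alb level, 4.27% of the series, are described here. Alb is the transcript of serum albumin, a product of the liver. The libraries were chosen by that level alone, in CPM (the count of a gene divided by the total count of its library, times 1000000). Alb ranged from 594.9 to 4558 CPM in the 20 (median 1009 CPM) and from 0.355 to 22.7 CPM (median 9.03 CPM) in the libraries below the median of the series, which was 22.8 CPM. These libraries are called Alb-low here, and those between them and the 20, at 22.98 to 536.5 CPM (median 68.3 CPM), are called intermediate. For each of the 20 there were 11.7 Alb-low and 10.7 intermediate libraries. The last 3 libraries inside the limit had 634.5, 606.1 and 594.9 CPM, and the first 2 outside it had 536.5 and 479.6 CPM, so the limit does not fall in a gap. Because Alb chose the libraries, its own difference is given as a description with no test.

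DO mice are outbred animals that descend from several inbred founder strains. All mice, in every group used here, ate a high-fat, high-sugar diet whose label reads 45 percent fat, and each gave 1 library of polyadenylated RNA. The labels name the tissue only as adipose and give neither sex nor generation. The methods of the study describe nearly equal numbers of males and females, fed the diet from soon after weaning. They name the tissue as the gonadal fat pad. The study also took liver and skeletal muscle from these mice. The 20 libraries are named by the mouse labels, from DO501 with the highest Alb to DO238 with the lowest.

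Total counts ranged from 58.4 M to 128.7 M in the 20 and from 35.3 M to 137.8 M over the series (M, 1000000 counts), so that Alb rested on 49396 to 460579 counts per library in the 20 and on 26 to 2659 in the Alb-low libraries. Counts of Y chromosome genes were present in 5 of the 20 (DO557, DO109, DO396, DO297 and DO174), against 59.8% of the Alb-low and 44.9% of the intermediate libraries. Xist, the transcript of the inactive X chromosome, and the Y chromosome genes were therefore added to the model as an alternative to each comparison. The supplement of the study counts as many males and females for adipose tissue as there were libraries with and without Y counts. Some of the 20 had neighbouring library numbers, with a smallest gap of 1, and 6 of the 20 had a number under 300, against 77 libraries, or 16.5%, of the series. Whether library order had a part in Alb was not tested. One of the 20, DO164, stood apart by its skeletal muscle transcripts, described under other tissues.

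Hepatocytes, the main cells of the liver, secrete most proteins of blood plasma, make bile acids, convert ammonia to urea, release glucose between meals and oxidize drugs and steroids with cytochrome P450 enzymes. Adipocytes store triglyceride and share part of this metabolism with the liver, since they also make fatty acids, glycerol and some secreted proteins such as transferrin and retinol binding protein. In bulk RNA, fewer cells of a type and less RNA per cell cannot be told apart, and a liver transcript in an adipose library can only be counted, not placed in a cell.

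Alb belongs to a small gene family that lies in 1 cluster on mouse chromosome 5, with Gc (the vitamin D binding protein), Afm (afamin, a vitamin E carrier) and Afp (alpha-fetoprotein, the fetal counterpart of albumin, which is silenced in the liver after birth). The 150 bases before the RefSeq start of each of the 4 genes are shown because the family holds both a fetal and 3 adult liver genes. They are read 5′ to 3′ on the strand of the gene from RefSeq (GRCm38.p6), and capitals mark GTTAAT, or ATTAAC, the same letters on the other strand, a short motif that was searched for in each window. The windows are chr5:90460720-90460869 on the plus strand for Alb, chr5:89457899-89458048 on the minus strand for Gc, chr5:90518799-90518948 on the plus strand for Afm and chr5:90490564-90490713 on the plus strand for Afp.
Alb: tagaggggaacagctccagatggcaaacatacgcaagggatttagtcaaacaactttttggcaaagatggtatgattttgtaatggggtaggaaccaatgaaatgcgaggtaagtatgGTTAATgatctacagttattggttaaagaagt
Gc: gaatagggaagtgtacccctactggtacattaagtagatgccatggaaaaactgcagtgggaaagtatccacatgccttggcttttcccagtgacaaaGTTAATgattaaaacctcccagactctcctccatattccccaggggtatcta
Afm: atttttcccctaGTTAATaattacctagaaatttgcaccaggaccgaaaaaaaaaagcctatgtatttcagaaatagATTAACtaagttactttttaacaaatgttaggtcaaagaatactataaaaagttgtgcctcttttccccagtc
Afp: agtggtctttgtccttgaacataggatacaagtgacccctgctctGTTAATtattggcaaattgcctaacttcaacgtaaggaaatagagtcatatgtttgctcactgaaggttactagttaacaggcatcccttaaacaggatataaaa
The match lay 32 bases before the start in Alb, 52 in Gc and 73 in Afm, which held a second one further upstream, and that of Afp was also further upstream. Such a match describes letters only and says nothing about binding. Over windows of 300 bases (250 before and 50 after the start), with both strands searched, 2228 of 27025 mouse promoters held it (8.24%), and so did 867 of the 14290 promoters of genes in this table (6.07%), 35 liver list genes (20.8%), with 17 of 50 plasma protein genes, 3 of 26 amino acid and urea genes, 1 of 18 transporter genes and 0 of 11 major urinary protein genes among the lists. Genes made by both hepatocytes and adipose tissue held it in 7 of 30 cases (23.3%), a share like that of the liver lists, and adipocyte genes in 0 of 12.

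The adult members of the family moved together and the fetal one did not. Gc ranged from 29.9 to 274.5 CPM in the 20 (median 79.02 CPM) against a median of 0.113 CPM in the Alb-low libraries, where the highest held 24.8 CPM, so that the groups did not overlap. Its log2 fold change was 7.74 ± 0.33 (SE; adjusted p = 3.08e-63, edgeR quasi-likelihood test with Benjamini-Hochberg adjustment, as for every adjusted p that follows). Afm ranged from 2.82 to 15.2 CPM (median 3.92 CPM) and was listed at 0 in most Alb-low libraries, none of which passed 0.639 CPM (log2 fold change 6.87 ± 0.31, adjusted p = 1.71e-59). Afp stayed between 0 and 0.330 CPM in the 20 (median 0.0925 CPM), against a median of 0.0399 CPM in the Alb-low libraries, and its log2 fold change of 0.37 ± 0.45 did not pass the test (adjusted p = 0.691). Per kilobase of exon, the median level in the 20 was 430.99 CPM for Alb, 42.8 CPM for Gc, 1.29 CPM for Afm and 0.0275 CPM for Afp, an order in which Gc and Afm, and Afm and Afp, did not overlap.

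To ask which other transcripts came with Alb, the 20 were compared with the Alb-low libraries over 22477 genes other than Alb. Of these, 2.59% were higher in the 20 and 3.42% were lower, and the median log2 difference over all genes was -0.03. Once Xist and the Y genes were added, 2.35% of 22464 genes were higher and 0.254% (57 genes) were lower, so that the share of higher genes moved little and most of the lower calls were lost. Within libraries without Y counts alone (15 against 94), 2.29% of 21482 genes were higher, and within libraries with Y counts alone (5 of the 20), 1.48% of 22023. The 7 liver lists held 64 plasma proteins, 14 major urinary proteins, 46 genes of drug and bile acid metabolism, 34 of amino acid and urea metabolism, 22 of glucose and lipid metabolism, 11 transcription factors and 20 transporters. Of these genes together 86.3% were higher and 1 was lower, with a median log2 difference of 4.21. The lists were chosen with earlier results of these data known, so their shares are descriptions. The share of the liver list genes that were higher was 88.6% with Xist and Y in the model, 83.4% in the libraries without Y counts and 75.5% in those with them. Each of the 20 lay above each Alb-low library for 92 genes (0.409% of those tested), of which 62 were on the liver lists and 30 were not.

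**Figure D1:**
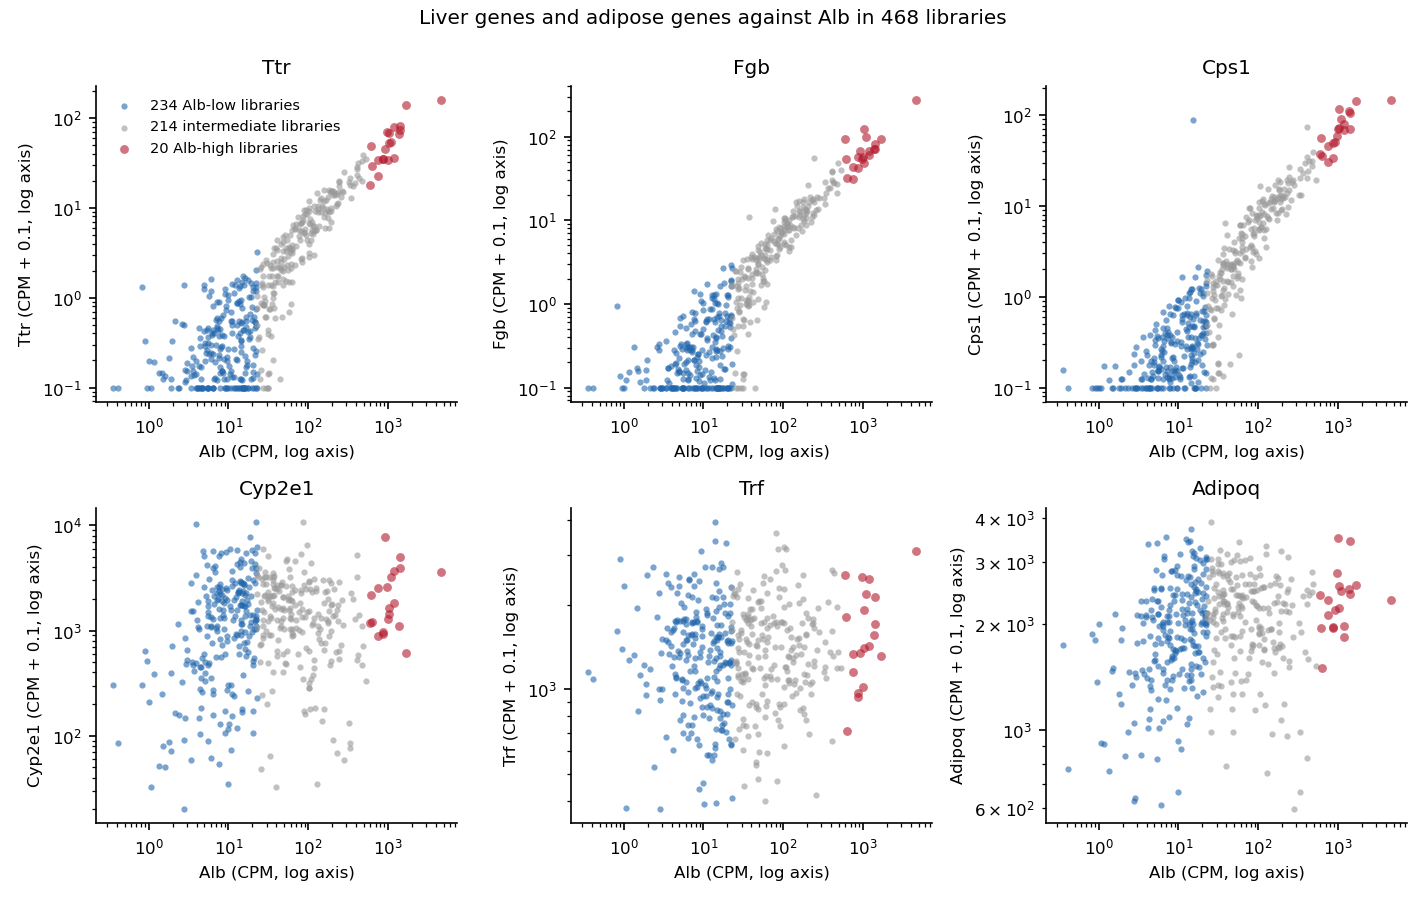
Levels of 6 genes against Alb (both in CPM, log axes; 0.1 CPM was added to the y values) in the 20 Alb-high (red), the intermediate (grey) and the Alb-low (blue) libraries, 1 point per library. Ttr, Fgb and Cps1, 3 hepatocyte genes, climb with Alb through the intermediate libraries to the 20, while Cyp2e1, Trf and Adipoq span the same range of levels at low and at high Alb.

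Secreted plasma proteins made up the largest list, and 60 of its 64 members rose in the 20, with 1 lower and a median log2 difference of 5.23. Fibrinogen, the clotting protein that becomes fibrin, has 3 chains, and all 3 genes rose. Fgb ranged from 30.7 to 270.6 CPM in the 20 (median 63.03 CPM) against a median of 0.113 CPM and a highest value of 2.83 CPM in the Alb-low libraries. The groups did not overlap, and the log2 fold change was 8.02 ± 0.31 (adjusted p = 1.12e-69), beside 7.55 for Fga and 7.75 for Fgg.

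Among other clotting and complement genes, prothrombin (F2) ranged from 10.4 to 73.002 CPM (median 24.96 CPM, log2 fold change 7.49) and plasminogen (Plg), which dissolves clots, from 18.8 to 155.9 CPM (median 44.1 CPM, log2 fold change 7.90). Neither overlapped with the Alb-low libraries, whose highest values were 1.15 and 1.73 CPM. Kng1, the kininogen, rose by 7.43 and Hrg, the histidine-rich glycoprotein, by 7.94 on the log2 scale. Antithrombin (Serpinc1) was different in degree: it held a median of 39.9 CPM in the 20 but also 4.64 CPM in the Alb-low libraries, and its log2 fold change of 3.23 ± 0.07 was smaller while its adjusted p (3.35e-121) was the lowest of the plasma protein list.

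Transport proteins of plasma rose as well. Transthyretin (Ttr), the carrier of thyroid hormone and of retinol binding protein, ranged from 17.9 to 156.6 CPM (median 50.4 CPM), above a highest Alb-low value of 3.14 CPM (log2 fold change 7.50 ± 0.30, adjusted p = 1.26e-68). Fetuin A (Ahsg), which keeps calcium phosphate in solution, ranged from 51.9 to 304.3 CPM (median 84.4 CPM) against a median of 0.852 CPM and a highest value of 5.25 CPM (log2 fold change 6.70 ± 0.17, adjusted p = 1.50e-104). The apolipoproteins Apoa1 and Apob, the main proteins of HDL and of VLDL, had medians of 73.5 and 88.7 CPM in the 20 and of 0.447 and 0.200 CPM in the Alb-low libraries, but the highest Alb-low libraries reached 283.2 and 516.6 CPM, so these groups overlapped. Their log2 fold changes were 5.13 and 5.04.

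Plasma proteins that adipose tissue also makes behaved otherwise. Transferrin (Trf), which carries iron, had a median of 1490 CPM in the 20 and 1326 CPM in the Alb-low libraries, with wide overlap and no call (log2 difference 0.30 ± 0.14, adjusted p = 0.198). Retinol binding protein (Rbp4) had medians of 383.98 and 267.6 CPM and rose by 0.64 ± 0.13 (adjusted p = 6.79e-05), but only 1 of the 20 lay above the highest Alb-low library. Haptoglobin (Hp), which binds free hemoglobin, was the 1 member that was lower, at 379.1 against 556.5 CPM (log2 difference -0.93 ± 0.29, adjusted p = 0.0332), and it was not called with Xist and Y in the model (-0.26, adjusted p = 0.769). Apoc1, an apolipoprotein of macrophages as well as hepatocytes, was between these classes, at 74.5 against 42.5 CPM (log2 fold change 0.65, adjusted p = 0.00101).

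Drug metabolism and bile acid synthesis had 40 of 46 members higher, none lower and a median log2 difference of 5.64. The 15 largest rises among all genes with a median of at least 1 CPM in the 20 were led by a cytochrome P450 gene, Cyp2c39, at 8.79, and also held Cyp2c37 (8.53), Ces1c (8.34), Cyp2a4 (8.27), Cyp2c29 (7.95) and Cyp2c50 (7.86). Members of the Cyp2c family are near copies, and reads they share can be split between them, so their single values are less certain than their joint rise. Ces1c, a carboxylesterase that is secreted into mouse plasma, ranged from 23.4 to 156.7 CPM in the 20 (median 40.7 CPM), while the Alb-low libraries had a median of 0.0370 and a highest value of 1.30 CPM. Slc27a5 and Baat, which couple bile acids to coenzyme A and to taurine, rose by 6.59 and 5.82, and Cyp8b1, which makes cholic acid, by 3.20, from a median of 0.523 CPM in the Alb-low libraries. Cyp2e1, which oxidizes ethanol, ranged from 611.5 to 7734 CPM (median 1734 CPM) in the 20, within the range of the Alb-low libraries (median 1187 CPM), and was not called (log2 difference 0.54 ± 0.35, adjusted p = 0.388). Cyp27a1, of the acidic route of bile acid synthesis, was not called either, at 46.7 against 45.4 CPM.

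Urea cycle and amino acid catabolism had 31 of 34 members higher and none lower, with a median log2 difference of 4.25. Cps1, the mitochondrial enzyme that takes up ammonia, ranged from 30.5 to 145.4 CPM (median 68.99 CPM) in the 20. Its Alb-low median was 0.129 CPM, although 1 Alb-low library reached 87.2 CPM, and its log2 fold change was 6.90 ± 0.38 (adjusted p = 2.65e-45). Next in the cycle, Otc had a median of 6.70 CPM (log2 fold change 6.03), Ass1 49.9 CPM against 6.26 CPM (2.74), Asl 20.3 CPM against 14.5 CPM (0.57 ± 0.06, adjusted p = 8.59e-18) and Arg1 14.8 CPM against 0.367 CPM (4.98). The 5 enzymes thus rose together but from unequal levels in adipose tissue, with Asl the most even between the groups. Mat1a, the liver form of methionine adenosyltransferase, rose by 7.89, Bhmt by 7.27, Gnmt by 5.29, and the tyrosine enzymes Tat and Hpd by 5.51 and 5.59.

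Glucose and lipid metabolism had fewer calls, 15 of 22 higher and none lower, with a median log2 difference of 1.67. G6pc, which releases free glucose and so marks a tissue that feeds the blood, ranged from 2.84 to 31.4 CPM (median 7.74 CPM) against a median of 0.196 CPM (log2 fold change 4.49 ± 0.27, adjusted p = 9.78e-40). The highest Alb-low library reached 17.4 CPM, so the groups overlapped. Fabp1, a fatty acid binding protein that liver shares with intestine, rose by 3.82, with a median of 29.5 CPM in the 20, but the highest Alb-low library reached 448.4 CPM. Gys2, Acsm3, Acsm5, Amacr, Acaa1b, Mttp and Apoa4 were not called.

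Of 11 hepatocyte transcription factors, 6 rose. Foxa3, Nr1i3 (the receptor CAR) and Nr1i2 (the receptor PXR) rose by 4.94, 4.33 and 3.18, with medians of 0.509, 3.68 and 0.969 CPM in the 20. Hnf4a, a central regulator of hepatocyte genes, ranged from 4.32 to 30.4 CPM in the 20 (median 12.5 CPM) against a median of 0.116 CPM, but the highest Alb-low library reached 60.8 CPM, and its log2 difference of 1.61 ± 0.64 was not called (adjusted p = 0.118). With Xist and Y in the model it was 5.32 (adjusted p = 6.59e-17). Cebpa, which adipocytes need as well, was level between the groups at 392.9 against 403.3 CPM (log2 difference -0.01, adjusted p = 0.945).

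Transporters and surface receptors of hepatocytes were called in 18 of 20 cases, all higher, with a median log2 difference of 3.16. Slc10a1, which takes bile acids up from blood, ranged from 2.81 to 16.8 CPM (median 7.97 CPM) against a highest Alb-low value of 0.694 CPM, without overlap (log2 fold change 5.40 ± 0.13, adjusted p = 7.47e-108). Abcb11, the pump that exports bile acids into bile, rose by 7.70 and the asialoglycoprotein receptor Asgr1 by 6.60. Hamp, the iron hormone hepcidin, was listed at 0 in DO251 and reached 6.76 CPM in DO474 (median 2.95 CPM), with a log2 fold change of 7.66. Summed with the related gene Hamp2, the range was 0.0693 CPM in DO251 to 19.9 CPM in DO557 (median 5.95 CPM). The library of highest level thus depends on whether Hamp2 is counted. Tfr2 and Slc13a5 were the transporters not called.

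Major urinary proteins (MUPs), pheromone carriers that the mouse liver secretes in large amounts, had 12 of 14 members higher with a median log2 difference of 3.93. Mup10 and Mup18 were not called. All 14 were higher with Xist and Y in the model and in the libraries with Y counts, but 7 in the libraries without them. The MUP genes are near-identical copies, and some were listed near 0 in single libraries, so their single values are uncertain and their sum is given instead. It ranged from 108.4 to 1961 CPM in the 20 (median 302.5 CPM) and from 0.195 to 6648 CPM in the Alb-low libraries (median 10.2 CPM). The ranges thus overlapped, although 18 of the 20 lay above the Alb-low 95th percentile of 159.5 CPM.

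Further transcripts outside the lists came with Alb. Among those named by a ranking, Pzp, a broad protease inhibitor of plasma, ranged from 32.8 to 325.8 CPM (median 75.1 CPM, log2 fold change 7.45), Mst1, the growth factor MSP, from 1.27 to 7.17 CPM (4.67) and 1300017J02Rik from 3.21 to 28.7 CPM (6.16). None of these 3 overlapped with the Alb-low libraries. Uox (urate oxidase, 4.92), Mug1 (a relative of Pzp, 7.44), Hc (complement C5, 5.12) and Mbl1 (mannose binding lectin, 5.43) were named after their values were seen, and each is a known liver product.

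Genes called higher in the comparison, again with Xist and Y in the model and also along Alb in the intermediate libraries were 1.47% of those tested, and 50.6% of them were on the liver lists. They were then divided by their excess share, the part of the median CPM in the 20 that lies above the Alb-low median, in percent. The excess was at least 90% for 74.5% of these genes (57.7% of them on the liver lists), from 50% to 90% for 68 genes, of which 20 were on the lists, and under 50% for 16 genes, of which 5 were, Apoc1, Asl, Khk and Kmo among them. For these 5, more than 50% of the median level in the 20 was also present in the Alb-low libraries.

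Over the 20 libraries themselves, the slope of log2 CPM on log2 Alb had a median of 0.82 for the genes with an excess of at least 90%, 0.64 for the 68 and 0.46 for the 16, where 1 stands for a constant ratio to Alb and 0 for no relation. The median slope of all liver list genes was 0.77 with a median Pearson r of 0.65, beside 0.05 and 0.09 over all genes tested. DO501 held 2.71 times the Alb of the next library, and without it the median slope of the liver list genes was 1.07. The genes with the highest r over the 20 were Pglyrp2 (0.92), Ahsg (0.92), Ces1c (0.92), Afm (0.91), Mst1 (0.91), Itih2 (0.91), Cfi (0.90), F2 (0.90), 1300017J02Rik (0.88) and Plg (0.88), all secreted proteins apart from 1300017J02Rik, whose role is not given here. These values are descriptions over 20 libraries that share the measure that chose them.

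**Figure D2:**
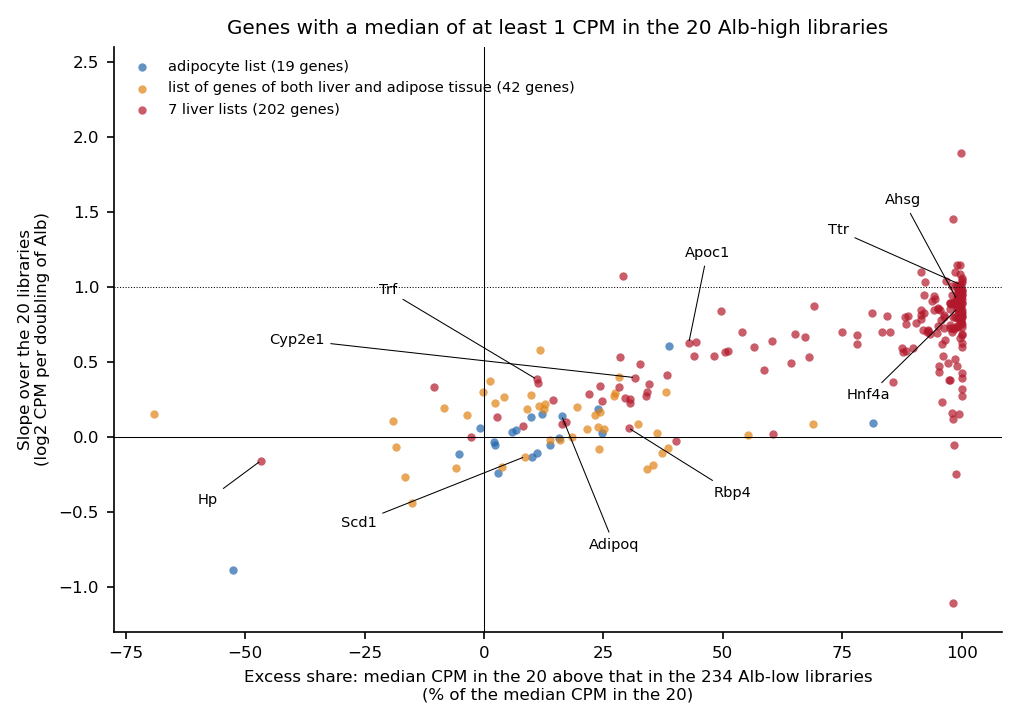
Excess share (x, percent of the median CPM in the 20 that lies above the Alb-low median) and slope over the 20 libraries (y, log2 CPM per unit of log2 Alb) for liver list genes (red), genes listed for both liver and adipose tissue (orange, 42 genes) and adipocyte genes (blue, 19 genes), 1 point per gene with a median of at least 1 CPM. Most liver list genes crowd at an excess near 100% with slopes around 0.77, while most adipocyte genes lie near 0 on both axes; Cyp2e1, Trf, Rbp4 and Hp, though on liver lists, lie with the latter.

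A list of 43 genes that hepatocytes and adipose tissue both make had 1 member higher, none lower and a median log2 difference of 0.20. Over all genes tested, 2.59% were higher and 3.42% lower. The 1 call was catalase (log2 fold change 0.38, adjusted p = 0.0255), and it was not called with Xist and Y in the model (0.20, adjusted p = 0.444) or without DO501 (0.36, adjusted p = 0.0540). Scd1, the stearoyl desaturase, held 85559 CPM in the 20 and 78267 CPM in the Alb-low libraries (medians; log2 difference 0.25, adjusted p = 0.129). The fatty acid synthase Fasn, the gluconeogenic and glyceroneogenic enzyme Pck1 and apolipoprotein E (Apoe) were not called, with adjusted p of 0.450, 0.142 and 0.721. None of the 43 separated the 20 from the Alb-low libraries, against 29.4% of the genes on the liver lists and 0.409% of all genes tested. The counts of higher and of separating genes in this list were thus near those of genes at large. Like the liver lists, it was chosen with earlier results of these data known.

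The liver list genes with an excess of at least 90% (70.1% of the lists) were summed per library to see how much RNA came with Alb. The sum ranged from 1246 to 7334 CPM in the 20 (median 3026 CPM), and together with Alb it took from 0.199% (DO251) to 1.19% (DO501) of all counts, with a median of 0.399% in the 20, 0.0440% in the intermediate libraries and 0.0113% in the Alb-low libraries. One Alb-low library reached 0.682%, with a sum of 6799 CPM, and its Alb, like that of each Alb-low library, was at most 22.7 CPM. The sum holds 13 of the 14 MUP genes, and the MUP genes alone reached 6648 CPM in an Alb-low library. Whether these were the same library was not examined. The liver sums follow the choice of libraries and, since a gene entered by its excess in the 20, also that of genes. They carry no test. The sums of the whole lists differed in their overlap. All 20 lay above the Alb-low 95th percentile in the amino acid and urea list and in that of transporters, and 18 in that of MUPs. In the plasma protein list and in that of glucose and lipid metabolism 9 of the 20 did so. In that of transcription factors 2 did, and in that of drug and bile acid metabolism 1.

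The intermediate libraries were outside the comparison of the 20, and in them 3.60% of 22304 genes changed along log2 Alb in either direction, and 1.76% of 22291 climbed once Xist and Y were in the model. Of the liver list genes 81.5% changed, each of them upward, with a median slope of 0.85 per unit of log2 Alb against 0.00 over all genes, and 81% climbed with Xist and Y in the model, with a median slope of 0.80. The genes of lowest p were Gnmt, Serpinc1, Slc27a5, Slc10a1, Kng1, Itih1, Ahsg, Pzp, Hpd and Apoa5. For Ahsg the slope was 1.13 ± 0.04 (SE; adjusted p = 7.89e-66), for Gnmt, an enzyme that consumes S-adenosylmethionine, 0.98 ± 0.03 (adjusted p = 5.36e-74) and for Serpinc1 0.46 ± 0.02 (adjusted p = 5.91e-72). None of the adipocyte, shared or endothelial genes climbed.

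As a description over the same libraries, the Pearson r of log2 CPM with log2 Alb had a median of 0.705 over the liver list genes, with 67 genes at 0.8 or more, 78 from 0.5 to 0.8 and 66 under 0.5. The points share library depth and preparation. For Ttr r was 0.856 (Spearman's rho 0.921, r 0.852 without the 2 libraries farthest from the median of Alb, and 0.845 to 0.917 within blocks of consecutive library numbers). For Cps1 r was 0.868 (rho 0.924, r 0.866 without the 2 libraries, 0.844 to 0.909 within blocks). Cyp2e1 had an r of -0.213 and Trf of 0.0335. The median r was 0.750 in the libraries without Y counts and 0.754 in those with them.

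In the Alb-low libraries the median r of the liver list genes with Alb was 0.1497. There 3439 genes climbed along log2 Alb (15.4%) and 3334 fell (14.9%) with Xist and Y in the model, among them 56.6% of the liver list genes up and 6.34% down, 15 of 19 adipocyte genes up and 15 of 18 macrophage genes down. At these levels Alb thus moved with adipocyte transcripts and against macrophage transcripts, whereas 0 of the 19 and 0 of the 18 were called along Alb in the intermediate libraries.

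Ratios to Alb show how alike the 20 were in their liver transcripts. For the liver list genes with a median of at least 1 CPM and an excess of at least 90% (67.8% of the lists), the SD of the log2 ratio to Alb over the 20 had a median of 0.57, with 54 genes under 0.5 and 34 over 1. The most constant was Ahsg, at 6.50 (DO044) to 12.97 (DO151) counts per 100 counts of Alb, with a median of 8.90 and an SD of 0.27. Afm (0.334 to 0.628 per 100), Ces1c (2.84 to 5.82), F2 (1.51 to 3.07), Itih2 (1.26 to 2.64) and Plg (2.91 to 6.18) followed, each with a highest ratio at most 2.12 times the lowest, while Alb spanned 594.9 to 4558 CPM. DO501 had the lowest ratio for 45 of these genes and DO251 for 24, and DO396 had the highest for 26, DO297 for 21 and DO174 and DO238 for 17 each. The liver sum was 160.9 per 100 counts of Alb in DO501 and was highest in DO174, with a median of 257.7. It was 387.2 or more in each of the 5 libraries with Y counts and at most 417.9 in the 15 without. This sum holds 13 of the 14 MUP genes, so MUPs make up part of that difference. The MUP genes summed to 92.4 to 272.99 per 100 counts of Alb in the 5 and to 10.5 to 131.8 in the 15.

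**Figure D3:**
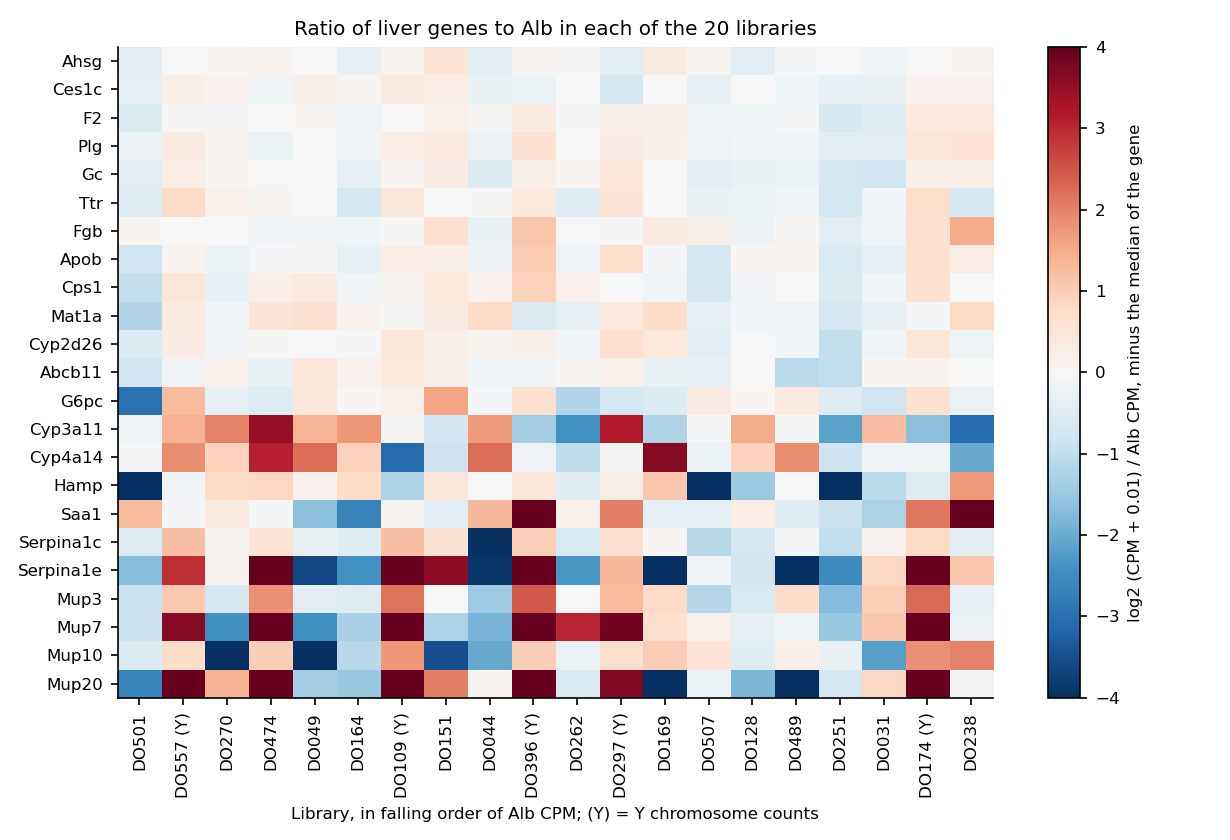
Log2 ratio of 23 liver genes (rows) to Alb in each of the 20 libraries (columns, in falling order of Alb), minus the median of the gene over the 20; 0.01 CPM was added to each value and the colours end at 4 above and below. The upper rows, from Ahsg to Abcb11, stay pale in nearly every library, while the lower rows differ by library: Saa1 is highest in DO238 and DO396, Serpina1c is lowest in DO044, and Mup20 and Mup7 are high in the 5 libraries with Y counts, marked (Y).

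The largest SDs were mostly those of MUP copies, led by Mup19 (5.13) and Mup18 (4.33), with Serpina1e (3.63), and single values of such copies are uncertain. Some other variable genes are given as examples chosen after their values were seen. Cyp3a11, a drug-inducible enzyme, ranged from 0.141 per 100 counts of Alb in DO238 to 13.2 in DO474, with 10.6 in DO297 and a median of 1.19. Cyp4a10 and Cyp4a14, fatty acid hydroxylases that respond to PPAR alpha, summed to 0.221 per 100 in DO109, 13.4 in DO169 and 8.63 in DO474 (median 1.56), so DO474 was high for both sets. G6pc, less variable at an SD of 0.96, ranged from 0.0997 in DO501 to 2.33 in DO151 (median 0.783). The sum of Serpina1a to Serpina1e, the alpha-1 antitrypsin copies, was 14.01 to 70.8 per 100 (median 24.6), and Serpina1c was 0.905 CPM in DO044 against 24.96 CPM or more in the other 19 libraries, although reads shared by these copies are divided between them.

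Acute phase proteins, which hepatocytes secrete during inflammation, had 6 of 15 members higher (Saa1, Saa2, Saa4, Apcs, Crp and Hamp) and 2 lower (Lcn2 and Il1rn), with a median log2 difference of 0.23. The 2 lower genes were not called with Xist and Y in the model. Apcs, serum amyloid P, rose by 8.18, with 0.700 to 20.3 CPM in the 20 (median 1.83 CPM) and at most 0.212 CPM in an Alb-low library. Saa1 and Saa2, near copies that also share reads, together were 4.85 per 100 counts of Alb in DO238 and 0.640 in DO396 against a median of 0.0376, and the fibrinogen genes were 47.8 and 38.6 per 100 in the same libraries against a median of 17.4. These 2 libraries thus had the highest ratios of both sets, and DO238 also the lowest of Cyp3a11. Other acute phase genes with an adipose level, such as Orm1 (184.4 against 155.2 CPM, adjusted p = 0.130), Steap4 (adjusted p = 0.958) and Saa3 (adjusted p = 0.163), were not called.

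Liver genes that differ between the sexes in mice were compared between the 5 libraries with Y counts and the 15 without, as log2 ratios to Alb. The ratio does not level the libraries fully, since ordinary liver genes were also higher against Alb in the 5: Ttr, on neither list of sex-biased genes, was 6.63 to 8.37 per 100 counts of Alb in the 5 and 2.99 to 5.62 in the 15. Of the liver list genes on neither list (MUP and Serpina1 copies left out), 86.1% had a higher mean ratio in the 5, with a median difference of 0.48. The differences were therefore also taken relative to the median of these genes in each library, a choice made after the data had been seen. Alb, which chose the libraries, is the denominator of the first form and cancels in the second. Each gene was tested by a two-sided exact permutation test over all 15504 regroupings, whose smallest p is 6.45e-05, and 33 genes were tested without adjustment. Cyp2d9, a steroid hydroxylase of male liver, ranged from 19.1 to 46.4 CPM in the 5 and from 0.0496 to 22.5 CPM in the 15, and its log2 ratio to Alb was higher in the 5 by 6.20 (exact p = 6.45e-05) and by 5.67 relative to the other liver genes. The ratios of the 5 all lay above those of the 15, although 1 library without Y counts, DO474, came close.

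Of 17 genes known as higher in males, 12 had a higher ratio in the 5 at an unadjusted exact p under 0.05, none a lower one and 5 neither. Relative to the other liver genes, 10 were higher and 2 lower (Nudt7, -0.90, and Cspg5, -1.49), and Cyp7b1 and Moxd1 no longer passed (exact p = 0.0555 and 0.136). Elovl3 (-0.31, exact p = 0.764), Cyp2u1 and Gstp1 passed in neither form. Mup20, the pheromone darcin, was 2.94 to 55.9 CPM in the 5 and at most 1.00 CPM in 14 of the 15, with 105.8 CPM in DO474 (difference 6.03, exact p = 0.000838). The complement genes C8a and C8b differed by 2.22 and 2.52 (exact p = 6.45e-05 and 0.00123), Slco1a1 by 2.31 (exact p = 0.000193), Ugt2b1 by 1.85 (exact p = 6.45e-05) and Serpina1e, 1 of several near copies whose single value is uncertain, by 5.31 (exact p = 0.00200). Relative to the other liver genes, the difference was 1.33 for Ugt2b1 (exact p = 0.000129) and 1.69 for C8a (exact p = 0.000967). It was 2.00 for C8b (exact p = 0.00677) and 1.79 for Slco1a1 (exact p = 0.00284). DO474 thus carried no Y counts but levels of Mup20 above those of each library with Y counts.

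Of 16 genes known as higher in females, 7 had a lower ratio in the 5, 3 a higher one (Fmo2, Sult1e1 and Cux2) and 6 neither, and relative to the other liver genes 10 were lower and 2 higher. Cyp2a4 was 1.04 to 33.3 CPM in the 15 (median 8.21 CPM) and 0.0177 to 6.90 CPM in the 5 (median 0.599 CPM), a difference of -3.57 (exact p = 0.00116). Cyp2b9 differed by -3.27 (exact p = 0.00516), Cyp2b13 by -4.31 (exact p = 0.00148), A1bg by -4.49 (exact p = 0.000258) and Acot3 by -2.45 (exact p = 0.00374). For Cyp2c39 the difference of -1.85 did not pass (exact p = 0.0606), and relative to the other liver genes it was -2.37 (exact p = 0.0450). In the intermediate libraries, 96 of which held Y counts, the differences had the same sign for the genes just named with a value that passed, among them 5.45 for Cyp2d9, 5.38 for Mup20, 2.71 for C8a, -3.14 for Cyp2a4 and -2.11 for A1bg. Genes of the same lists that adipose tissue makes went another way: the estrogen sulfotransferase Sult1e1, listed as higher in female liver, was 14.2 to 50.4 CPM in the 5 and at most 1.56 CPM in the 15, and its Alb-low median was 13.9 CPM.

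**Figure D4:**
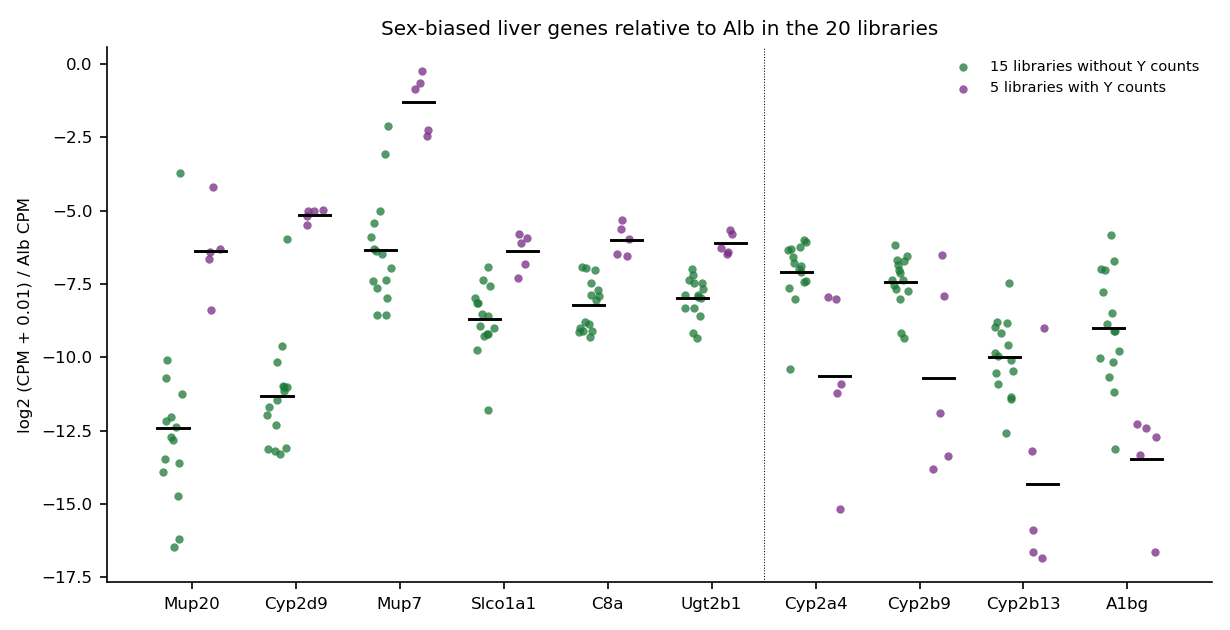
Log2 ratio to Alb (y; 0.01 CPM was added) of 6 genes known as higher in male liver (left of the dotted line) and 4 known as higher in female liver (right), with 1 point per library for the 15 libraries without Y counts (green) and the 5 with them (purple); bars are means. The purple bars lie above the green ones on the left and under them on the right, and the 1 green point level with the purple ones for Mup20 and Cyp2d9 is DO474.

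Transcripts of other cell types were examined to describe what else the 20 held. Of 15 genes of liver sinusoidal endothelium, stellate and Kupffer cells, Clec4g, a lectin of sinusoidal endothelium, was the 1 called in the comparison: it ranged from 0.246 to 1.69 CPM (median 0.576 CPM) against a median of 0.111 CPM (log2 fold change 2.36 ± 0.22, adjusted p = 4.45e-20). The summed list ranged from 46.7 to 138.4 CPM in the 20 and from 20.95 to 232.6 CPM in the Alb-low libraries. Stab2, which lymph node and spleen share with liver sinusoids, was not called (0.31, adjusted p = 0.574). Of 9 bile duct genes, 4 were lower and none was higher, and none was lower with Xist and Y in the model. None of 8 pancreas acinar and 8 red blood cell genes was called, and 0 of 12 mesothelium genes.

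Skeletal muscle was the exception, and its calls rested on 1 library. Of 15 muscle genes, 14 were higher in the 20, with a median log2 difference of 3.01, but the list summed to 9332 CPM in DO164 and to 36.1 to 284.7 CPM in the other 19, against a median of 66.6 CPM and a highest value of 1541 CPM in the Alb-low libraries. The sum lay above the Alb-low 95th percentile of 229.8 CPM in 4 of the 20, DO164, DO109, DO489 and DO396. DO164 alone held 668.1 CPM of Ckm, 1145 CPM of Acta1 and 2924 CPM of Myh4. Without DO164, 2.13% of 22475 genes were higher, 0 muscle genes were called higher and 85.8% of the liver list genes were. Its Alb was 1193 CPM, and its liver sum, at 206.3 per 100 counts of Alb, lay within the range of the others.

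Genes of most cell types of the adipose tissue were not called, while macrophage genes were in part lower. None of 19 adipocyte, 13 progenitor, 12 endothelial and 12 mesothelial genes was called, with median log2 differences of 0.19, -0.03, -0.04 and 0.25. Adipoq (adiponectin) had medians of 2336 and 1956 CPM (log2 difference 0.30, adjusted p = 0.0854) and Fabp4, the fatty acid binding protein of adipocytes, of 10110 and 9421.5 CPM (0.20, adjusted p = 0.0604). The adipocyte list summed to 38879 to 64850 CPM in the 20 and to 18137 to 68256 CPM in the Alb-low libraries. Of 18 macrophage genes, 6 were lower in the 20 (10 with DESeq2), with a median log2 difference of -0.55, and 0 were lower with Xist and Y in the model (median -0.19).

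The largest falls among all genes with an Alb-low median of at least 1 CPM were those of Spp1 (osteopontin, -3.54), Tph2 (-3.25), Acsbg1 (-2.96), Tm4sf19 (-2.60), Mmp12 (-2.60), Lcn2 (-2.59), Gpnmb (-2.58), Itgad (-2.55), Itgax (-2.55) and Atp6v0d2 (-2.49). Most of them are genes of lipid-laden macrophages. With Xist and Y in the model, Tph2 and Acsbg1 were the members of these 10 that still passed, with adjusted p of 0.0290 and 0.0184. Itgad was no longer called without DO501 or without DO164, with a log2 difference of -2.49 in both cases (adjusted p = 0.0520 and 0.0516), and none of the 10 was called by limma on log2 CPM, 7 of them with a log2 difference between -1.60 and -1.17 and the others at -1.88 (Spp1) and -1.02 (Tph2 and Acsbg1). Spp1 ranged from 0.139 to 6.10 CPM in the 20, inside the Alb-low range, whose highest value was 598.3 CPM, and its adjusted p rose from 0.000520 to 0.0729 with Xist and Y in the model. The share of Alb-low libraries with Y counts thus moved with these falls, and its part in them was not tested further.

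**Figure D5:**
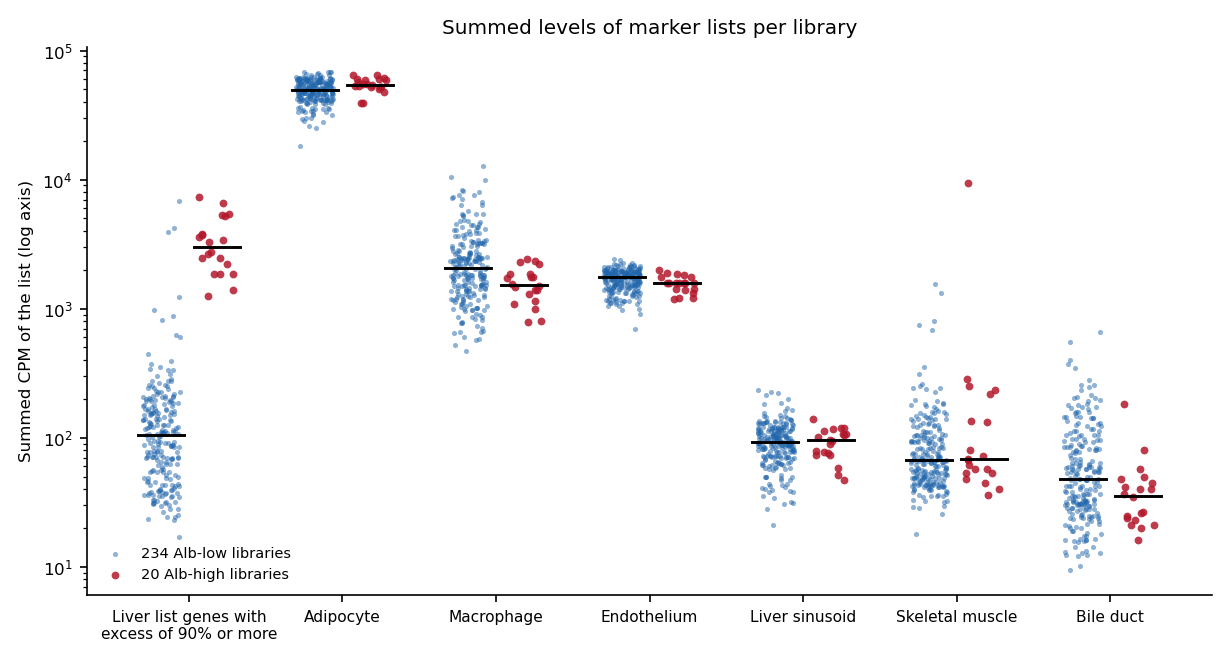
Summed CPM (log axis) of 7 gene lists in each of the Alb-low (blue) and the 20 Alb-high (red) libraries, 1 point per library with bars at the medians. The liver sum holds the genes chosen for their excess in the 20 and so lies higher in them by construction, the adipocyte, macrophage, endothelium and liver sinusoid sums overlap, and the 1 red point near 9332 CPM for skeletal muscle is DO164.

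Some Alb-low libraries held high levels of liver list genes that other epithelia also make, such as Hnf4a, Apob and Fabp1. When the 47 Alb-low libraries (20.1%) with a summed level above 109.4 CPM over 22 kidney, intestine, epididymis and pancreas genes were left out and Xist and Y were in the model, 3.10% of 22253 genes were higher in the 20, among them 89.1% of the liver list genes, and Hnf4a rose by 5.70, beside 5.32 with Xist and Y alone and 2.73 with those libraries left out alone. Leaving them out alone gave 6.74 for Apob and 5.92 for Fabp1. Leaving those libraries out was chosen after the data had been seen.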

How the data were processed

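Each library came from 1 mouse. The authors deposited expected counts per gene from EMASE, run within GBRS. Reads had been mapped without use of their pairing against transcripts of all 8 founder strains. EMASE divides reads shared by similar genes by expectation maximization. Transcripts that were rarely detected had been filtered out. The submitters' processing notes name the build GRCm38. Every count column belonged to a labelled sample. A second deposited table, a variance stabilized copy of the counts, and the raw reads were not used.

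For this report the expected counts were rounded and tested with edgeR 4.0.16 in R 4.3.3 (quasi-likelihood, TMM, at least 10 counts in at least 10 libraries, Benjamini-Hochberg adjustment over all genes, called at an adjusted p under 0.05). Alb was left out of the tests. Alternatives used limma 3.58.1 and DESeq2 1.42.0. Slopes and correlations used log2(CPM + 0.1) and ratios to Alb used CPM + 0.01. The edgeR step was tested on simulated data. Y counts were those of 11 Y chromosome genes. Gene identifiers were matched to GENCODE M21 (23180 of 23180).

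Besides liver list members, genes were named by rank: the 15 largest rises and 10 largest falls with a median of at least 1 CPM, the 10 highest r over the 20 and the 10 lowest p in the intermediate libraries. The members and lists were chosen with earlier results of these data known, so p adjusted over a list are not given. Leaving out DO164 or the 47 libraries, the fits by Y counts and the values relative to other liver genes were chosen after seeing the data. P-values measure the spread between single mice of unknown litter and wave. Some genes and their results are not reported here.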

Additional observations from a re-analysis of the deposited data

Results flagged for a closer look

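In a model with an interaction term, 11 genes differed between libraries with and without Y counts in their log2 fold change of the 20 against the Alb-low libraries (edgeR quasi-likelihood, Benjamini-Hochberg over all genes). The fold was higher with Y counts for the major urinary proteins Mup3 by 4.29 (adjusted p = 1.67e-05), Mup10 by 7.73 (adjusted p = 0.00166), Mup21 by 4.86, Mup16 by 5.94 (both adjusted p = 0.0118) and Mup11 by 6.82 (adjusted p = 0.0301). It was also higher for Cpn2, a subunit of plasma carboxypeptidase N, by 4.41 (adjusted p = 0.00373) and for Selenbp2 by 2.65 (adjusted p = 0.00373). For A1bg it was lower, by -4.40 (adjusted p = 0.00408).

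Immunoglobulin segments made up the rest, with Ighv10-1 at 5.35 (adjusted p = 0.0118), Igkv4-74 at 5.77 (adjusted p = 0.0301) and Igkv6-14 at 6.40 (adjusted p = 0.0118). Major urinary protein genes and immunoglobulin segments have near copies, so the single values are uncertain. Each of these is a difference between folds, which rest on 5 of the 20 with Y counts and on 15 without. The Alb-low libraries with and without Y counts enter it too.

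Among the 5 libraries with Y counts, DO396 lay apart from the other 4 in the log2 ratio to Alb of 3 genes known as higher in female liver, with A1bg and Acot3 listed at 0 CPM and Cyp2c39 at 0.0464 CPM. The distance passed Dixon's limit for 5 samples, which chance passes in about 1 group in 20, and 19 genes were examined. The levels are low: in the other 4 libraries A1bg was 0.114 to 0.206 CPM and Acot3 0.151 to 0.680 CPM. The distance of a value at 0 therefore depends on the 0.01 CPM added before the ratio. Dixon's limit was not tested with another amount.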

How the results depend on the processing

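Of the genes tested, 2.59% were higher and 3.42% lower in the 20. Among the alternatives run, the higher share moved by over 1.5 times only in the libraries with Y counts alone, at 1.48%. The lower share was 0.529% with limma, 6.04% with DESeq2, 0.254% with Xist and Y in the model, 0.249% for the 10 and 0.822% for the 40 highest libraries, 1.37% against all other libraries, 2.23% without DO501, 0.0466% without and 0.0272% with Y counts alone, 1.72% without the 47 Alb-low libraries of other tissues and 0.292% without them and with Xist and Y in the model. In the intermediate libraries the climbing share was 1.76% with Xist and Y, 1.45% without and 1.86% with Y counts alone and 26.9% in the Alb-low libraries instead; the falling share was 0.202% with Xist and Y, 0.229% with mouse and library number in the model, 0.173% without Y counts alone and 22.7% in the Alb-low libraries. There, Xist and Y moved the shares to 15.4% and 14.9%. The median slope over the 20 was 0.77 and was 1.07 without DO501.

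The sign turned for Mup10 (-0.54) and Mup18 (-0.49) without Y counts alone, Lcn2 (0.34 without Y counts alone) and Afp (-0.32 with Y counts alone). The cause was not tested. The share of liver list genes higher in the 20 stayed between 75.5% and 90.5% over all alternatives. Of 85 folds of named genes, 85 kept both sign and status (called or not called) with RLE scaling or with no filter. The same held for 84 with DESeq2, 84 without DO164, 72 with Xist and Y, 72 for the 10 highest and 71 with limma. It held for 69 without Y counts alone and for 62 of 81 with Y counts alone. Apart from the turned signs named above, the remaining folds kept their sign and gained or lost a call. No paired analysis was possible because the labels give 1 group with no replicate numbers. Low transcripts such as Afp, Foxa3 and Saa2 rested on few counts in the Alb-low libraries.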

Other observations

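Thermogenic genes are not liver genes and were not called in the comparison (0 of 10 in either direction, median log2 difference 0.32), but their sum had a median of 678.03 CPM in the 20 and 154.7 CPM in the Alb-low libraries. The ranges overlapped, from 67.6 to 3039 CPM in the 20 and from 44.6 to 5661 CPM in the Alb-low libraries. The median log2 difference of the list turned to -0.44 with Xist and Y in the model. It was -0.43 in the libraries without Y counts alone and -0.60 in those with them. DO031 held the highest sum of the 20.

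DO109 held the highest summed level of the 20 for 4 lists of other tissues and cell types, with 161.1 CPM of kidney genes, 182.1 CPM of epididymis genes, 181.6 CPM of bile duct genes and 2443 CPM of macrophage genes. The medians of the 20 for these lists were 13.8, 0.190, 35.6 and 1520 CPM. The epididymis list rested on 2 measured genes.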
